A study of Homo sapiens with 21 samples.

Results

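Hs578T is a mesenchymal cell line established from triple-negative breast cancer, and the comparison described here set Hs578T cells given nilotinib at 1 µM together with THZ531 at 0.1 µM against cells given the solvent DMSO. All genes that passed a filter on low counts were included, which were 16036 of the 28395 genes in the count table, in 3 combination libraries and 3 DMSO libraries of the 21 libraries in the series. The 21 libraries came from 7 groups of 3 replicates: DMSO, THZ531 at 0.1 µM, THZ531 at 1 µM, nilotinib at 1 µM, lapatinib at 3.16 µM, nilotinib with 0.1 µM THZ531, and lapatinib with 0.1 µM THZ531. All cells were wild-type Hs578T of the same culture conditions, and RNA was taken at a single time within hours of treatment. The comparison asks how far a low dose of THZ531 changes the transcriptome when nilotinib is present, and the other groups show what each inhibitor did alone.

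THZ531 is a covalent inhibitor of CDK12 and CDK13, kinases that bind cyclin K and phosphorylate the C-terminal domain of RNA polymerase II while it elongates a transcript. CDK12 is best known for keeping long DNA repair genes expressed, since polymerase that lacks this phosphorylation can end transcription early at polyadenylation sites inside introns. Nilotinib was developed against the tyrosine kinase BCR-ABL and also inhibits PDGF receptors, KIT and the discoidin domain receptors. ABCG2 is a membrane transporter that exports many drugs, and several tyrosine kinase inhibitors are known to block it.

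Total counts lay between 97612207 and 112229052 per library over the series. Replicates within the DMSO and combination groups correlated at 0.990 to 0.994 on log2 CPM (read counts expressed per library of a fixed size), and no pair of libraries matched within sampling noise. Of 8 mesenchymal markers, all were expressed, and their summed level was 20798 to 24822 CPM in DMSO and 26692 to 33631 CPM in the combination. CDH1, the epithelial cadherin, stayed at or below 0.297 CPM in all 6 libraries, and 7 markers of blood and endothelial cells summed to at most 2.92 CPM. KRT18, an epithelial keratin, was nevertheless present at 83.5, 83.5 and 84.1 CPM in DMSO. The epithelial markers that passed the filter, 6 of 8, summed to 105 to 106 CPM in DMSO and 168 to 188 CPM in the combination. The replicates of a group came from independent experiments, so the p-values measure the spread between experiments.

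The combination changed the level of many genes, and decreases outnumbered increases. A gene was called when edgeR's quasi-likelihood test gave it an adjusted p-value below 0.05 and its log2 fold change (log2 FC) lay beyond 1. By this rule 3336 genes were lower (20.8% of those tested) and 1048 were higher (6.54%). Called genes numbered 1163 below a log2 FC of -2 and 428 above 2, and 315 below -3 and 220 above 3. Beyond 4 the order turned, with 79 below -4 and 106 above 4. Genes called higher were low in DMSO (median 0.12 CPM), and genes this low can pass the filter through the groups in which they are high. When at least 10 counts in every library were required, 2750 genes were called lower and 491 higher. Among protein-coding genes that passed the main filter, 3012 of 13747 fell and 584 rose. With the adjusted p-value alone, 37.3% of genes were lower and 33.7% higher, and in 38.3% of genes all combination libraries lay below all DMSO libraries, against 34.6% above them.

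Genes called lower were mostly of middling level. Their median in DMSO was 11.3 CPM, against 13.8 CPM over all tested genes and 0.12 CPM for the genes called higher. Together the lower genes held 8.92% of all CPM in DMSO and 2.41% in the combination, while the higher genes went from 0.894% to 1.85%. A bulk measurement cannot tell less RNA per cell from fewer cells that make it.

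The split between higher and lower depends on the scaling, because the trimmed mean of M-values (TMM) takes most genes to be unchanged. The median log2 FC of all genes was -0.01 with TMM, -0.31 with library size alone, 0.13 with upper-quartile scaling and -0.63 when libraries were scaled to the 13 mRNAs made inside mitochondria by a separate polymerase. They took 1.25% ± 0.0896 of counts in DMSO and 1.56% ± 0.114 in the combination (SD, n = 3). With the mitochondrial scaling 5902 genes were lower and 493 higher, and with library size alone 4426 and 684. Small increases given below are therefore increases relative to the bulk of genes.

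The 10 deepest falls among well-expressed protein-coding genes included regulators of transcription. ZC3H4, which restrains transcription of non-coding RNA, stood at 37.6, 54.3 and 40 CPM in DMSO and at 2.01, 2.38 and 3.18 CPM in the combination. All combination libraries were thus far below the lowest DMSO library, and the log2 FC was -4.12 ± 0.24 (SE, adjusted p = 9.3e-12).

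CREB1, the transcription factor that responds to cyclic AMP, went from 55.7, 48.8 and 48.3 CPM to 4.36, 3.64 and 4.33 CPM, with a log2 FC of -3.63 ± 0.13 (adjusted p = 8.13e-15). NPAT, the coactivator of replication-dependent histone genes, went from 39.3, 36.3 and 33.4 CPM to 2.42, 2.66 and 3.49 CPM. The groups were separate for both genes, and the combination libraries differed among themselves by little. The other genes of the 10 largest falls were WBP1L, SMCR8, LYSMD3, NUFIP2, HMGXB4, the ubiquitin ligase RFWD3, which acts in DNA repair, and RNF111, a ubiquitin ligase of TGF-β signalling, with log2 FCs from -3.89 for WBP1L to -3.49 for RNF111.

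The 10 largest rises in the same class of genes were led by JUNB. JUNB, a subunit of the AP-1 transcription factor, stood at 34.2, 37 and 34.9 CPM in DMSO and at 233, 222 and 221 CPM in the combination. That was a rise of 6.37-fold, with a log2 FC of 2.67 ± 0.07 (adjusted p = 1.51e-16), and every combination library lay far above DMSO. GADD45B, a stress-induced gene, went from 32.4, 46.6 and 36.3 CPM to 197, 236 and 230 CPM, ID2, an inhibitor of basic helix-loop-helix factors, from 36.5, 31.6 and 36.7 to 179, 183 and 191 CPM, and CCN2, a secreted matricellular protein, from 145, 158 and 146 to 681, 788 and 774 CPM. RHOB, a small GTPase, rose with a log2 FC of 2.37, ARGLU1, a splicing modulator, with 2.39, SGK1, a serum-induced kinase, with 2.30, and FOXC1, a forkhead factor, with 2.17. DIPK2A (2.64) and IER5L (2.45) complete the 10. JUNB, CCN2 and SGK1 overlap other annotated genes, and unstranded reads of overlapping genes cannot be told apart.

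By absolute amount, NRP1, EIF5, STC2 and THBS1 were among the genes that lost most CPM in the combination. NRP1, a co-receptor of VEGF and semaphorins, fell from 526, 528 and 501 CPM to 166, 179 and 185 CPM (log2 FC -1.56 ± 0.07, adjusted p = 1.69e-13). THBS1, thrombospondin, fell with a log2 FC of -1.45. The largest gains of CPM were in ACTB, GAPDH, FTL, EEF1A1 and COL1A1. ACTB, for cytoplasmic actin, rose by a log2 FC of 0.76, GAPDH by 0.79, FTL by 0.81 and EEF1A1 by 0.57 with TMM, but with the mitochondrial scaling ACTB, GAPDH and FTL no longer passed the test and EEF1A1 stood at -0.05. COL1A1, at a log2 FC of 0.46, missed the threshold (adjusted p = 0.0555). It passed with upper-quartile scaling (0.60, adjusted p = 0.0125), among other alternatives, and stood at -0.17 with the mitochondrial scaling (adjusted p = 0.411).

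Promoter windows are shown for those rising genes that held a TATA box. Of the 10 largest rises and the immediate-early genes called higher, 20 genes in all, 18 had a RefSeq promoter sequence (GRCh38.p14), and 5 of these held the TATA box letters TATAAA on the sense strand within the 50 bases before the start. In the same window and strand the letters occurred in 2.13% of 11211 promoters of protein-coding genes, in 1.08% of the 2504 called lower and in 7.24% of the 428 called higher. These sets were not matched by level. All genes called higher had a median of 0.12 CPM in DMSO, against 13.8 CPM over all tested genes. The windows of the 5 rising genes follow, 5′ to 3′ on the gene's own strand, with TATAAA in capitals, for FOS at chr14:75278778-75278827 (plus strand), JUNB at chr19:12791436-12791485 (plus), FOSB at chr19:45467946-45467995 (plus), GADD45B at chr19:2476077-2476126 (plus) and CCN2 at chr6:131951373-131951422 (minus).
FOS: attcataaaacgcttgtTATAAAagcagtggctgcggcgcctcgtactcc
JUNB: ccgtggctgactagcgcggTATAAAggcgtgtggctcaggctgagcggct
FOSB: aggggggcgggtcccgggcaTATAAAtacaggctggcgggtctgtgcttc
GADD45B: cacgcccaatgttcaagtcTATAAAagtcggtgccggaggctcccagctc
CCN2: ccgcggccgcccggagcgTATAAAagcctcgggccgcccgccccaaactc

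Over the whole 300-base promoter of the same 11211 genes, TATAAA on either strand occurred in 6.30% of all, in 4.83% of the 2504 called lower and in 13.8% of the 428 called higher. The ETS site CCGGAAGT went the other way, at 8.26% of all promoters, 9.70% of those called lower and 2.57% of those called higher. The GC box GGGCGG occurred in 68.0% of all, 66.1% of lower and 59.8% of higher promoters, and the CRE letters TGACGTCA in 3.14%, 3.71% and 2.57%. The CCAAT box (CCAAT) occurred in 36.6%, 39.7% and 37.1% in the same order. The E-box (CACGTG) occurred in 9.84%, 9.62% and 8.41%. The AP-1 site (TGAGTCA) was the last of the 7 motifs searched, all on both strands and without removing overlaps, and occurred in 3.21%, 3.55% and 3.04%. A match says only that the letters are present in the window. The sets differ in their level in DMSO, and whether the shares follow level or the treatment was not tested.

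A few genes for the kinases of the polymerase itself were reduced. Of 20 kinases of the C-terminal domain, their cyclins and regulators of the 7SK complex, 4 were called lower (20%, a share like the 20.8% of all genes) and 0 higher. CDK12, the target of THZ531, went from 48.8, 57.5 and 49.3 CPM in DMSO to 14.1, 16.8 and 18.7 CPM in the combination, a log2 FC of -1.65 ± 0.14 (adjusted p = 3.58e-09). With 0.1 µM THZ531 alone the same transcript stood at 66.3, 74.7 and 78.9 CPM, above all DMSO libraries. CDK13, its paralog, had a log2 FC of -0.43, too small for a call, and passed by the adjusted p-value alone (0.0292). That pass was lost without combination replicate 1 (-0.27, adjusted p = 0.174) or DMSO replicate 2 (adjusted p = 0.0878). It was also lost with upper-quartile scaling (-0.29, adjusted p = 0.105). CCNK, for cyclin K, had a log2 FC of 0.23 and did not pass the test (adjusted p = 0.104). It passed as higher with upper-quartile scaling (0.37, adjusted p = 0.00714) and as lower with the mitochondrial scaling (-0.40, adjusted p = 0.0158).

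MEPCE, which caps the 7SK RNA, fell from 126, 135 and 128 CPM to 23.7, 30.1 and 31.5 CPM (log2 FC -2.19 ± 0.13), and CCNL1, a cyclin of splicing kinases, had a log2 FC of -1.57. CDK9, the kinase that releases paused polymerase, fell with a log2 FC of -0.97. HEXIM1, its inhibitor, stood at 0.67 (adjusted p = 0.0155), which did not pass without combination replicate 2 or 3 (adjusted p = 0.0561 and 0.0755), with library size alone (0.37, adjusted p = 0.175) or with the mitochondrial scaling (0.04, adjusted p = 0.883). Among 12 subunits of the polymerase, 1 was called lower and 1 higher (8.33% each, against 20.8% and 6.54% of all genes). Their median log2 FC was 0.54 with TMM and -0.08 with the mitochondrial scaling. POLR2D fell with a log2 FC of -1.92, whereas POLR2A, the largest subunit, which carries the C-terminal domain, rose from 209, 262 and 208 CPM to 361, 547 and 599 CPM. Of 21 elongation factors none passed the call in edgeR. By the adjusted p-value alone 6 were lower and 6 higher, against 37.3% and 33.7% of all genes.

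Several genes for cleavage and polyadenylation of transcripts fell. Of 19 tested, 8 were called lower (42.1%, against 20.8% of all genes) and 1 higher, and the median log2 FC was -0.61. CSTF2T, a paralog of the RNA-binding subunit of the cleavage stimulation factor, went from 36.6, 34.6 and 36.3 CPM to 3.46, 4.02 and 5.21 CPM (log2 FC -3.08 ± 0.17, adjusted p = 2.05e-12). PCF11, a termination factor that binds the C-terminal domain, went from 29.2, 31.4 and 28.1 CPM to 6.03, 6.73 and 7.74 CPM. CPSF7 and CSTF1 fell with log2 FCs of -2.50 and -2.41, and CPSF6, like CPSF7 a subunit of cleavage factor I, rose with 1.02. Of 18 SR proteins and their kinases, 2 were called lower (11.1%) and 1 higher (5.56%), against 20.8% and 6.54% of all genes.

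DNA repair genes, the class for which CDK12 is known, were reduced unevenly. Of 30 genes of homologous recombination and the Fanconi anaemia pathway, 13 were called lower (43.3%, against 20.8% of all genes) and 0 higher, and the median log2 FC was -0.84. BRCA2, a mediator of homologous recombination, went from 19.9, 24 and 18.3 CPM to 3.23, 3.08 and 4.23 CPM (log2 FC -2.56 ± 0.19, adjusted p = 1.97e-10). BRCA1 went from 20.4, 23.3 and 20.7 CPM to 8.26, 7.02 and 8.48 CPM, and its log2 FC was -1.44 ± 0.12. Neither gene had overlapping groups.

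SLX4, the scaffold of repair nucleases, showed the largest fall of the list with a log2 FC of -3.86, followed by XRCC2, a recombination protein (-2.76), and BLM, a helicase (-2.59). FANCD2, a central protein of the Fanconi pathway, stood at 40.2, 38.6 and 38.5 CPM in DMSO and 42.3, 38.4 and 37.7 CPM in the combination, and the groups overlapped (log2 FC 0.01, adjusted p = 0.849). FANCA, of the same pathway, rose with a log2 FC of 0.79 with TMM, which was 0.17 and did not pass the test with the mitochondrial scaling.

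Of 20 checkpoint genes, 8 were called lower (40%, against 20.8% of all genes) and 0 higher, with a median log2 FC of -0.92. ATRIP, the partner of the kinase ATR, went from 18.2, 18.2 and 19.6 CPM to 2.15, 1.56 and 1.94 CPM (log2 FC -3.31 ± 0.10), and ATR itself fell with a log2 FC of -1.06. MDM2, the ubiquitin ligase of p53, fell with -2.50. ATM, the kinase of double-strand breaks, moved the other way with 0.58, which was -0.04 with the mitochondrial scaling. CHEK1 fell with -0.54. CDKN1A, for the cyclin-dependent kinase inhibitor p21, stood at 0.67, and at 0.04 with the mitochondrial scaling. ATRIP overlaps TREX1 and MDM2 overlaps the carboxypeptidase M gene in the annotation.

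Of 26 genes of excision and mismatch repair, 7 were called lower (26.9%, a share near the 20.8% of all genes) and 0 higher. ERCC4, a nuclease of nucleotide excision repair, went from 17.7, 16.1 and 17.4 CPM to 1.13, 1 and 0.836 CPM (log2 FC -4.10 ± 0.14, adjusted p = 2.82e-15), and ERCC6, which repairs transcribed strands, fell with -3.44. Of 24 cell cycle genes, 12 were called lower (50%, against 20.8% of all genes) and 0 higher, led by E2F8, a repressor of the E2F family, with -3.43, while CCND1, for cyclin D1, had -0.42. Of 24 replication genes, 8 were called lower (33.3%, against the same 20.8%) and 0 higher. GINS1, of the replicative helicase, went from 55.5, 56.1 and 55 CPM to 5.5, 4.57 and 6.5 CPM, whereas PCNA, the sliding clamp, stood at 0.82 with TMM and at 0.19, short of the threshold, with the mitochondrial scaling.

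Kinases that nilotinib inhibits did not pass the call at the RNA level. Of 6 tested, 0 were called in either direction by edgeR, against 20.8% lower and 6.54% higher over all genes. By adjusted p-value alone 2 were lower and 2 higher, against 37.3% and 33.7% of all genes. ABL2 had a log2 FC of -0.97 ± 0.17, PDGFRA -0.72, PDGFRB 0.27 and DDR2 0.31, of which PDGFRB stood at -0.35 and DDR2 at -0.31 with the mitochondrial scaling. ABL1 did not pass the test (0.15, adjusted p = 0.408). Of 25 genes of growth factor receptors, RAS and JAK signalling, 1 was called lower (4%, against 20.8% of all genes) and 0 higher. By adjusted p-value alone 8 were lower and 13 higher, and their median log2 FC was 0.40, or -0.22 with the mitochondrial scaling. The 1 called was EGFR, which went from 183, 216 and 173 CPM to 53.2, 53.6 and 56.5 CPM (log2 FC -1.81 ± 0.10, adjusted p = 2.58e-12). SOS1, which activates RAS, and JAK2 fell with log2 FCs of -0.86 and -0.84.

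ABCG2 stood at 26, 20.8 and 24.9 CPM in DMSO and 32, 26.7 and 24.7 CPM in the combination. The groups overlapped and the log2 FC of 0.22 ± 0.12 did not pass the test (adjusted p = 0.105). This depended on the setting. ABCG2 passed as higher with upper-quartile scaling (0.36, adjusted p = 0.0123), with the replicate number as a block (0.21, adjusted p = 0.0478) and without combination replicate 3 (0.30, adjusted p = 0.0458). It passed as lower with the mitochondrial scaling (-0.40, adjusted p = 0.0416). None of the 7 drug transporters tested was called by edgeR, against 20.8% lower and 6.54% higher over all genes. By the adjusted p-value alone 3 of them passed, 1 lower and 2 higher, against 37.3% and 33.7% of all genes. ABCC1, the most studied of the others, had a log2 FC of 0.01 (adjusted p = 0.978).

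Immediate-early and other short-lived transcripts rose in many cases: of 19, 11 were called higher (57.9%, against 6.54% of all genes) and 2 lower, and the median log2 FC was 1.20. FOS, an AP-1 subunit, went from 1.34, 1.42 and 1.27 CPM to 11, 10.4 and 8.68 CPM (log2 FC 2.90 ± 0.22, adjusted p = 3.26e-10). EGR1, a zinc-finger factor of the growth response, went from 5.35, 7.06 and 4.79 CPM to 16.5, 18.6 and 17.1 CPM, and ATF3 rose with a log2 FC of 2.07. MYC rose with 1.17 ± 0.09. FOSL1, an AP-1 subunit, and NR4A1, an orphan nuclear receptor, fell instead, with -1.68 and -1.60. JUN, at 238, 271 and 243 CPM in DMSO and 241, 275 and 291 CPM in the combination, did not pass the test (adjusted p = 0.442). With the mitochondrial scaling the group's median was 0.57 and 6 were called higher.

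Of 15 regulators of apoptosis, 4 were called lower (26.7%) and 2 higher (13.3%), near the 20.8% and 6.54% of all genes. MCL1, a short-lived survival protein, fell from 267, 250 and 261 CPM to 151, 183 and 184 CPM (log2 FC -0.59 ± 0.12, adjusted p = 0.000176), and BCL2L1, for BCL-XL, fell with -0.68. BCL2 fell from 1.71, 1.98 and 1.91 CPM to 0.432, 0.259 and 0.704 CPM, and BMF, a pro-apoptotic member, fell with -1.88. BBC3, for the pro-apoptotic protein PUMA, rose with 1.72 and BCL2A1, a survival member, with 1.99, and both stayed at or below 1.70 CPM. Of 16 inflammatory cytokines and NF-κB feedback genes, 7 were called lower (43.8%), among them CXCL8 (-1.88) and NFKBIE (-2.59), and 1 higher, the chemokine CCL2 (2.30).

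Zinc-finger genes named ZNF fell widely; many encode DNA-binding repressors and lie in clusters on chromosome 19. Of the 528 that were counted, 455 passed the filter, and 297 of these were called lower (65.3%) and 4 higher, with a median log2 FC of -1.59. ZNF440 went from 7.32, 6.02 and 6.2 CPM to 0.227, 0.216 and 0.275 CPM, and ZNF175 from 15.5, 12.3 and 14.2 CPM to 0.518, 0.854 and 0.99 CPM. Of the 1113 tested genes on chromosome 19, 29.0% were called lower, against 20.8% of all genes, 18.4% to 23.3% on each of the other autosomes and 14.2% of 564 on the X chromosome. Members share sequence, and reads of near-identical copies may be divided between them.

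Lists of abundant housekeeping mRNAs shifted together by a small amount. Of 76 cytosolic ribosomal protein genes 75 were higher by adjusted p-value, with a median log2 FC of 0.73, as were 70 of 76 subunits of the respiratory chain (0.68), 28 of 34 proteasome genes (0.54) and all 13 mitochondrial mRNAs (0.60). By the same adjusted p-value alone, 33.7% of all genes were higher. With the mitochondrial scaling the ribosomal median was 0.11, that of the respiratory chain 0.06 and that of the proteasome -0.08, and 1 ribosomal protein gene stayed higher by adjusted p-value. Of 74 mitochondrial ribosomal proteins, 6 were called lower (8.11%, against 20.8% of all genes) and 0 higher. Their median was 0.04 with TMM and -0.57 with the mitochondrial scaling.

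The remaining lists are set against the 20.8% of all genes called lower and 6.54% higher. Of 21 targets of the stress factor ATF4, 3 were called lower (14.3%) and 0 higher. Their median log2 FC was 0.12 in the combination and 0.68 with nilotinib alone. Their interaction was called lower in 6 and higher in 0, against 17.8% and 5.51% of all genes. Of 24 genes of sterol and fatty acid synthesis, 3 were called lower (12.5%) and 0 higher (median 0.15). Of 20 matrix genes 1 was called lower (5%, median 0.42), and of 12 feedback genes of ERK 2 were called lower (16.7%, median -0.50). With the mitochondrial scaling the combination medians were, in the same order, -0.50, -0.48, -0.20 and -1.12. Where edgeR called 0 members of one of these lists in a direction, DESeq2 also called 0, and 0 had an unadjusted p under 0.05 with a log2 FC beyond 1. At an unadjusted p under 0.05 and any log2 FC, the members in such a direction numbered 6 lower and 6 higher for elongation factors, 2 and 2 for the kinases inhibited by nilotinib, 1 and 3 for drug transporters, 5 higher for homologous recombination, 2 for the checkpoint, 10 for replication and up to 70 for the respiratory chain.

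Some transcripts that normally carry no poly(A) tail were higher in these polyA-selected libraries. Genes this low can pass the filter through the groups in which they are high, so they are given singly and not by counts over a class. Of the replication-dependent histone genes 39 passed the filter and 30 were too low to test. H3C1 went from 0.137, 0.0863 and 0.179 CPM to 1.22, 1.26 and 1.14 CPM. Among 24 small nuclear RNA genes that passed, 1 had 0 counts and 6 had 1 to 3 counts over the 3 DMSO libraries. Of those chosen after their values were seen, RNU12, the U12 RNA of the minor spliceosome, went from 0.00806, 0 and 0 CPM to 0.745, 0.475 and 0.649 CPM, RNU4ATAC from 0.113, 0.207 and 0.162 CPM to 3.31, 1.74 and 2.11 CPM, and RNU5A-1 from 0.0887, 0.0863 and 0.0936 CPM to 2.71, 2.15 and 1.98 CPM. RPPH1, the RNA of ribonuclease P, rose with a log2 FC of 5.49, and RN7SK with 2.11. Many of these genes have near-identical copies, and the assignment of reads among the copies is uncertain.

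Among protein-coding genes, CIMIP2A and EID3, chosen after their values were seen, rose from near 0. CIMIP2A went from 0.0161, 0.00863 and 0 CPM to 9.51, 11.6 and 10.3 CPM. It overlaps TUBB4B in the annotation, and reads of the overlapping stretch cannot be told apart. EID3, which overlaps TXNRD1, rose with a log2 FC of 5.87. Of all matched genes 60.9% overlapped another gene, and 58.0% of those called higher and 59.5% of those called lower did so.

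The share of genes that fell varied with transcript length and with level. Among protein-coding genes whose longest transcript was at most 1 kb, 4.21% were called lower and 13.6% higher, and the share called lower rose to 26.1% for transcripts of 8 to 12 kb, then was 18.9% above 12 kb. Genomic span showed no steady trend: 13.8% of genes up to 5 kb were called lower, 24.8% of those of 10 to 20 kb and 15.5% of those above 500 kb. Among genes of 2 to 10 exons the share was 11.1% up to 5 kb and 27.6% at 10 to 20 kb, and among genes with more exons it was 22.3% at 50 to 100 kb. Of genes with over 40 exons, 6.72% were called lower.

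The shares varied over a wider range with level. At a mean log2 CPM of 2 to 3, 40.9% were called lower, whereas above 8 the shares called lower and higher were both 0.561%. This mean was taken over the DMSO and combination libraries together, so a gene's own fall also lowers its bin. Shares by level in DMSO alone were not computed.

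Nilotinib and low THZ531 each changed few genes alone. Against DMSO, nilotinib changed 2 genes downward (0.0125%) and 4 upward (0.0249%), and 0.1 µM THZ531 changed 119 downward (0.742%) and 23 upward (0.143%). The interaction tests whether the combined change departs, in either direction, from the sum of the single changes on the log2 scale. A combined change smaller than that sum can therefore also be called. The interaction was called lower in 2855 genes (17.8%) and higher in 884 (5.51%). With the mitochondrial scaling these counts were 4458 and 423, and with library size alone 3661 and 563.

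Of the called genes at a mean log2 CPM of 1 or more, the most negative interaction was in IRF2, an interferon regulatory factor, which stood at 14.9, 13.5 and 14 CPM in DMSO, 15.7, 14.8 and 13.8 with low THZ531, 13.5, 13.8 and 14.7 with nilotinib, and 0.54, 0.724 and 0.814 CPM in the combination. Its interaction was -4.40 ± 0.24 (edgeR, adjusted p = 1.26e-11), and the first 3 groups overlapped while the combination lay far below. KAT14, an acetyltransferase, differed in that low THZ531 alone already had it at 9.41, 9.89 and 9.97 CPM, below all DMSO libraries, and its interaction was -4.31. C21orf91 and ZNF175 followed with -4.30 and -4.05.

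On the positive side, SNX32, a sorting nexin, lay between 0.519 and 0.637 CPM in all libraries of DMSO and the single inhibitors and at 6.61, 9.1 and 9.2 CPM in the combination (interaction 3.97, adjusted p = 5.39e-09). ZNF143-AS1 had an interaction of 3.71 and FOS of 2.98. FRG1 also passed the call (4.98, adjusted p = 0.00718), but it stood at 8.22, 9.43 and 0.468 CPM in DMSO and 10.5, 1.12 and 0.781 CPM in the combination, has many near-identical copies, and lost the call without combination replicate 1 (2.86, adjusted p = 0.0866).

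BRCA1 and FANCA already differed from DMSO with low THZ531 alone. BRCA1 stood at 11.6, 11.4 and 13 CPM there, below all DMSO libraries (log2 FC -0.84, adjusted p = 0.000244), and its interaction was -0.55. FANCA stood at 27.3, 27.4 and 29.3 CPM, close to its level in the combination (log2 FC over DMSO 0.70, adjusted p = 2.06e-06), and its interaction of 0.11 did not pass the test (adjusted p = 0.303). THBS1, by contrast, stood at 213, 295 and 305 CPM with nilotinib alone, below all DMSO libraries (log2 FC -0.78, adjusted p = 0.028).

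Set against 10 times more THZ531 given alone, the combination differed in few genes. It was lower than 1 µM THZ531 in 266 genes (1.66%) and higher in 144 (0.898%), or in 327 and 101 with the mitochondrial scaling. The second number rested on single libraries: it was 62 without 1 µM THZ531 replicate 2, 269 without replicate 1 and 228 without replicate 3 of that group, and 242 without combination replicate 1.

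FOS was among the genes that differed most, at 11, 10.4 and 8.68 CPM in the combination and 52.1, 75.4 and 35.5 CPM with 1 µM THZ531 (log2 FC -2.44 ± 0.20, adjusted p = 1.01e-07). CXCL8, the neutrophil chemokine interleukin 8, stood at 23.4, 18.7 and 20.2 CPM in the combination and 94.7, 109 and 82.5 CPM with 1 µM THZ531, where it overlapped DMSO at 87.4, 66.5 and 76.1 CPM. With nilotinib alone it was 47.4, 42.7 and 43.5 CPM, below all DMSO libraries (log2 FC -0.78, adjusted p = 0.0323). IRF2 (-1.79) and the long non-coding RNA THRIL (-2.17) were also lower in the combination.

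Higher in the combination than with 1 µM THZ531 were IFFO2 (1.54), SOCS7 (1.63), TNFAIP8 (1.46) and NEDD9 (1.46). TNFAIP8, an inhibitor of apoptosis, stood at 10.1, 8.58 and 8.79 CPM in the combination, overlapping DMSO, and at 3.14, 2.61 and 4.21 CPM with 1 µM THZ531. SOCS7 was uneven among the combination libraries, at 2.33, 4.79 and 1.22 CPM. RHOB stood at 176, 191 and 198 CPM in the combination and 91.3, 65.2 and 87.2 CPM with 1 µM THZ531 (log2 FC 1.21 ± 0.10).

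Against lapatinib with the same dose of THZ531, 8 genes were lower (0.0499%) and 2 higher (0.0125%) in the nilotinib combination by edgeR, with 2006 genes at an unadjusted p under 0.05. DDIT4, a stress-induced inhibitor of mTOR, was the 1 called gene that reached the level required for naming. It stood at 11.4, 12.1 and 14.3 CPM with nilotinib and THZ531 and at 36, 32.9 and 39.4 CPM with lapatinib and THZ531 (log2 FC -1.52 ± 0.29, adjusted p = 0.0102), and the groups did not overlap. The call was lost when nilotinib combination replicate 1 or 2 or lapatinib combination replicate 3 was left out (adjusted p = 0.0578, 0.0504 and 0.0546).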

How the data were processed

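The authors deposited raw counts per gene, without normalization, for polyA-selected, unstranded libraries of 100-bp paired-end reads. Per the labels, reads were processed with HISAT2 2.1.0, featureCounts and DESeq2 on GRCh38. The gene annotation and the unit of counting (fragments or reads) are not given in the sources used here. Columns were mapped to samples by name.

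Genes were named by NCBI identifier from RefSeq (27745 of 28395 matched), with exons and transcript lengths from GENCODE by symbol and chromosome. Counts were filtered with filterByExpr, TMM-scaled and fitted over all 21 libraries with edgeR 4.0.16 (R 4.3.3), 1 mean per group. Contrasts used glmQLFTest with Benjamini-Hochberg adjustment over 16036 genes. The script was tested on simulated data. CPM are TMM-scaled, and intervals are SE or SD over 3 libraries.

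Named genes were the 10 largest falls and rises among protein-coding genes of mean log2 CPM of at least 3 with separate groups, the largest changes and core members of each list, the 5 largest CPM losses and gains, and up to 4 genes each way for the other contrasts. Some genes that meet this rule are not reported here. Members and lists were chosen with earlier results of these data known. Alternatives were RLE, library-size, upper-quartile and mitochondrial scaling, other filters, DESeq2 1.42.0, glmTreat, a replicate block, halved counts, fewer groups and leaving out each library.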

Additional observations from a re-analysis of the deposited data

Results flagged for a closer look

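The interaction of nilotinib and 0.1 µM THZ531, a test of the difference itself, was called lower in 2855 genes and higher in 884, so the effect of nilotinib differed with and without THZ531 in these genes. Among the genes named for it the log2 interaction was -4.40 for IRF2, -4.31 for KAT14, -4.30 for C21orf91, -4.05 for ZNF175, 4.98 for FRG1, 3.97 for SNX32, 3.71 for ZNF143-AS1 and 2.98 for FOS. The value for FRG1 moved with the library left out.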

How the results depend on the processing

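Of the genes named for the combination against DMSO, 102 of 112 passed the adjusted p-value. Many of them were named because they passed it, so this share says nothing about robustness. The count of genes lower in the combination against DMSO stayed within 1.5 times under every alternative but the mitochondrial scaling (5902). The count of higher genes was 684 with library size alone, 493 with the mitochondrial scaling, 491 with at least 10 counts in every library and 527 with glmTreat. The interaction gave 4458 lower genes with the mitochondrial scaling and 1783 with glmTreat, and 563, 423, 549 and 312 higher genes with library size alone, the mitochondrial scaling, the strict filter and glmTreat. Against 1 µM THZ531, glmTreat gave 7 lower and 0 higher. Against the lapatinib combination the lower count was 4 with the mitochondrial scaling, 1 with only the compared groups and 0 with glmTreat, and the higher count was 1 with RLE, the strict filter or halved counts, 4 with library size alone, no filter or DESeq2, and 0 with glmTreat or only the compared groups. The cause of these shifts was not tested.

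Leaving out 1 library at a time gave 3245 to 3409 lower and 1001 to 1070 higher genes for the combination against DMSO, 2784 to 2906 and 791 to 907 for the interaction, 246 to 310 and 62 to 269 against 1 µM THZ531, and 3 to 13 and 0 to 5 against the lapatinib combination. With the replicate number as a block, 3340 genes were lower and 1036 higher against DMSO, 2848 and 874 for the interaction, 270 and 143 against 1 µM THZ531 and 9 and 2 against the lapatinib combination. Replicate numbers did not pair the libraries: the deviations of same-numbered DMSO and combination libraries correlated at 0.254, 0.482 and -0.635 over 8794 genes, and DMSO replicate 3 correlated best with combination replicate 1 (0.616).

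Named genes changed sign mainly with scaling. With library size alone the log2 FC was -0.07 for CCNK, -0.29 for FANCD2, -0.15 for ABL1, -0.03 for PDGFRB, -0.20 for JUN, -0.09 for ABCG2 and -0.29 for ABCC1. With the mitochondrial scaling it was -0.05 for EEF1A1, -0.17 for COL1A1, -0.40 for CCNK, -0.60 for FANCD2, -0.04 for ATM, -0.47 for ABL1, -0.35 for PDGFRB, -0.31 for DDR2, -0.52 for JUN, -0.40 for ABCG2 and -0.61 for ABCC1. With 1 library left out, the log2 FC against DMSO of FANCD2 ranged from -0.04 to 0.05, that of ABCC1 from -0.13 to 0.13 and that of SOCS7 from -0.04 to 0.96. The median of 12 of 28 gene lists changed sign with the mitochondrial scaling, 6 with library size alone and 1 with upper-quartile scaling. Counts near 0 limit the fold changes of the small RNAs.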
